A study of Arabidopsis thaliana with 10 samples.

Results

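The comparison is between 2 pairs of leaf RNA libraries of Arabidopsis thaliana, 4 of the 10 libraries in the study. The members were chosen by the name in the header of each deposited count file. One pair is headed Ran-G22V-D3 (Set1 and Set2) and its sample labels read RanG22V D0. The other pair is headed Ran-T27N-D3 (Set1 and Set2) and its sample labels read RanG22V D3. They are called here the pair headed G22V-D3 and the pair headed T27N-D3. A difference is always given as the first over the second, so that a positive log2 fold change means a higher level in the pair headed G22V-D3.

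By the headers, both pairs come from leaves kept 3 days in darkness, and they differ in the line. By the labels, both come from the RanG22V line, and they differ in time, with day 0 for the pair headed G22V-D3 and 3 days of dark incubation for the pair headed T27N-D3. Headers and labels disagreed for 8 of the 10 libraries. The pair headed Ran-G22V-D0 is labelled RanT27N D0, the pair headed Ran-T27N-D0 is labelled RanT27N D3, and the wild type pair is Col D0 under both names. Both names are given here because neither could be checked outside these files.

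The plants were wild type Col-0 and lines overexpressing Ran with a single amino acid change. RanT27N is described in the labels as Ran-GDP and RanG22V as Ran-GTP. All grew for 4 weeks in a day of 16 h light and 8 h dark at 22 °C, and the fifth and the sixth leaf were detached, either for harvest on day 0 or for 3 days in the dark. Every group has 2 libraries, the wild type was taken on day 0 only and carries no transgene, and the promoter, the Ran gene and the number of independent lines are not stated in the labels.

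Leaf senescence is the ordered dismantling of a leaf, in which chlorophyll, membranes and chloroplast protein are broken down and their nitrogen and carbon are moved out. Darkness of a detached leaf starts it early, because the leaf runs out of sugar, breaks down amino acids and fatty acids for respiration and turns on autophagy, the delivery of cell contents to the vacuole. Ran is a small GTPase that gives direction to transport through nuclear pores, with GTP-bound Ran in the nucleus and GDP-bound Ran in the cytosol.

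Total counts were 21877905 and 17886155 in the pair headed G22V-D3, 14187505 and 17539032 in the pair headed T27N-D3, and between 17730541 and 24496672 in the other 6 libraries. Ribosomal RNA took 17.39% and 8.76% of the counts in the first pair and 21.63% and 18.45% in the second. Without those rows 847 genes were called in place of the 846 given next. The authors deposited raw counts per gene, and levels are given as CPM, the count scaled to a common library size by TMM, with no correction for gene length, so levels are not compared between genes. Genes were tested with edgeR's quasi-likelihood test in a fit of all 10 libraries, and a gene is said to be called at a Benjamini-Hochberg adjusted p below 0.05. The leaf is a mixture of cells, so fewer cells of a type and less RNA per cell cannot be told apart.

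Between both pairs, 595 of 21475 genes (2.77%) stood higher in the pair headed G22V-D3 and 251 (1.17%) lower, together 3.94%. The number rests on each of the 4 libraries. Without 1 of the libraries headed T27N-D3 it fell from 846 to 27 or 28, and without either library headed G22V-D3 to 165, with the lone library of the pair assumed to vary like the other groups. Leaving out 1 or the other Col library raised it to 1464 or 1452, and a fit of the 4 compared libraries alone called 3607 (10.8% higher and 7.77% lower). No named gene reversed its direction in any of these fits. The shares of 2.77% higher and 1.17% lower are the background for list counts between the pairs in the fit of all 10 libraries. For counts by DESeq2, an alternative test, the background is 1523 higher and 1044 lower of 21475 genes. For the fit of the 4 libraries alone it is 10.8% and 7.77%. At an unadjusted p below 0.05 the edgeR fit of all 10 libraries had 4702 of 21475 genes.

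Markers of late senescence were high in both pairs. SAG12, a cysteine protease and the usual marker of leaf senescence, was at 508 and 756 CPM in the pair headed G22V-D3 and at 139 and 439 CPM in the pair headed T27N-D3. It was at 1.15 and 0 CPM in Col, at 0.139 and 1.22 in the pair headed G22V-D0 and at 0.0602 and 0.449 in the pair headed T27N-D0. The D3-headed pairs did not overlap with any other library, and each exceeded Col, with log2 fold changes of 10.06 ± 1.57 (SE), edgeR adjusted p = 0.00221 and of 8.93 ± 1.5 (SE), edgeR adjusted p = 0.00819. Between them SAG12 was not called (log2 fold change of 1.13 ± 1.05 (SE), edgeR adjusted p = 0.579). ORE1, the NAC transcription factor that drives age-dependent leaf death, was at 478 and 506 CPM against 160.3 and 197 CPM, with 3.09 and 19.7 in Col. NAP, a related NAC factor, was at 749 and 853 CPM against 337 and 353 CPM, with 4.59 and 35.5 in Col. For both genes the pair headed G22V-D3 lay above the other, and the other above Col, without overlap. Neither was called between the pairs (edgeR adjusted p = 0.476 and 0.57), and over Col both were called in the pair headed G22V-D3 and not in the pair headed T27N-D3 (edgeR adjusted p = 0.0644 and 0.0645).

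Against Col, 16 of 30 senescence regulators and markers were called higher and 2 lower in the pair headed G22V-D3, where 11.1% of all genes were called higher and 12.1% lower. In the pair headed T27N-D3 the counts were 10 higher and 3 lower, where 4.14% and 7.05% of all genes were called. These shares are also the background for the counts against Col in the lists below. The median over the list's genes of log2(CPM + 1) was 7.33 and 7.23 in the libraries headed G22V-D3, 5.07 and 5.44 in those headed T27N-D3 and 3.58 to 4.81 in the other 6, with no overlap among these 3 sets. The median log2 fold change of the list over Col was 2.14 in the first and 1.41 in the second. Both comparisons use the same Col libraries, which were taken on day 0 from wild type leaves, and so the line and the treatment cannot be told apart in them. In all, 4980 genes were called in the first and 2404 in the second, which became 2529 or 2384 without 1 library headed G22V-D3 and 642 or 549 without 1 headed T27N-D3. CYP89A9, WRKY45 and WRKY57 were called above Col in both pairs and not between them. CYP89A9, a cytochrome P450 that acts on chlorophyll breakdown products, stood at 836 and 973 CPM and 845 and 739.7 CPM, with 28.7 and 67.8 in Col.

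Between the pairs, 8 of the 30 were higher in the pair headed G22V-D3 and 0 lower, and the list's median log2 fold change was 1.26 against 0.02 over all genes tested. SAG29, a sugar transporter of the SWEET family that rises in senescing leaves, was at 786 and 973 CPM against 3.37 and 1.09 CPM. The other 6 libraries were between 0 and 2.09 CPM, so the pair headed G22V-D3 alone was high (log2 fold change of 8.64 ± 1.55 (SE), edgeR adjusted p = 0.0201). WRKY6, a transcription factor linked to senescence and defence, was at 68 and 40.4 CPM against 4.75 and 6.33 CPM (log2 fold change of 3.29 ± 0.37 (SE), edgeR adjusted p = 0.00414). The second pair lay below both Col libraries, at 13.8 and 10.9 CPM, although its difference from Col was not called (-1.15 ± 0.35 (SE), edgeR adjusted p = 0.0639). NAC087, a NAC transcription factor, was at 99.8 and 88.7 CPM against 11.9 and 20.1 CPM, with 1.75 and 1.45 CPM in Col, and was called above Col in both pairs. The other called members were SAG13, SAG14, WRKY75, SRG1 and NAC019, with log2 fold changes of 2.90, 2.3, 2.95, 2.60 and 1.82.

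Not all of the list moved that way. WRKY53, an early regulator of senescence, was at 19 and 12.3 CPM in the first pair and 9.04 and 13.1 CPM in the second, overlapping, and was called below Col in both pairs, where it was at 87.3 and 123 CPM. SAG101, an acyl hydrolase, had its smaller values in the pair headed G22V-D3, at 34.7 and 28.9 CPM against 39.9 and 36.9 CPM, with no call (edgeR adjusted p = 0.792). NAC072 overlapped between the pairs, at 751 and 446 CPM and 332 and 561 CPM. The count of 8 was 0 or 1 without a library headed T27N-D3, 3 without either headed G22V-D3, and 18 in the fit of the 4 libraries alone.

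**Figure D1:**
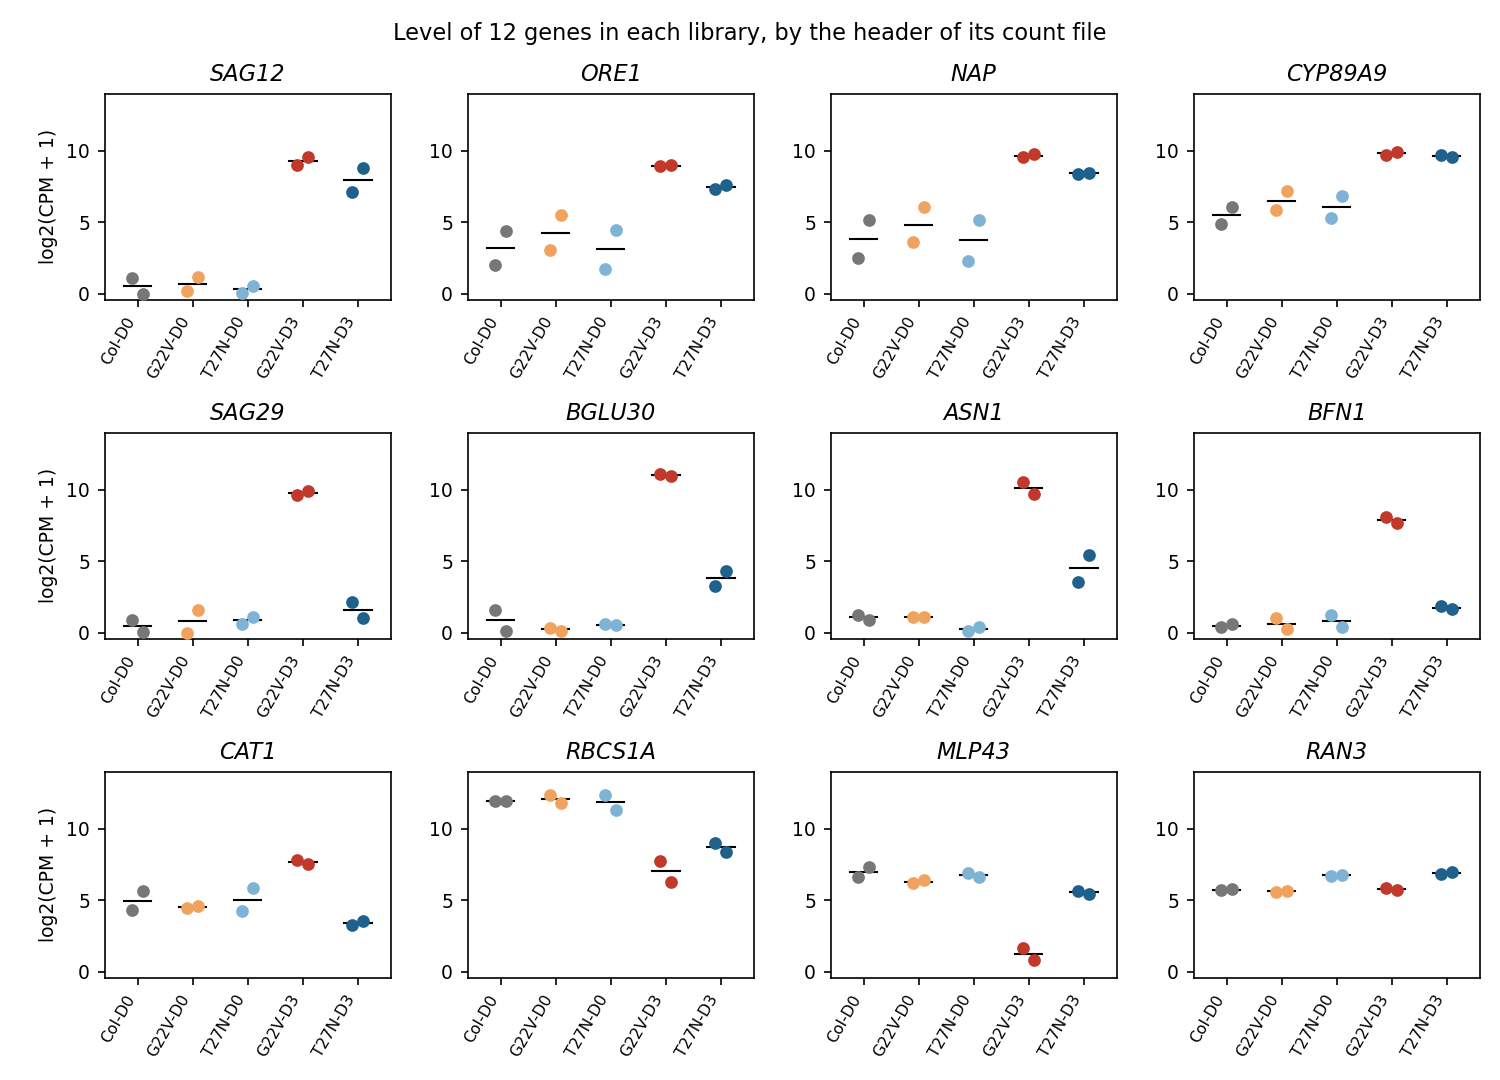
Levels of 12 genes on a log2(CPM + 1) axis in each of the 10 libraries, grouped by count file header, with each point a library and each line the mean of a pair. SAG12, ORE1, NAP and CYP89A9 are high in both D3-headed pairs, SAG29, BGLU30, ASN1 and BFN1 are high in the pair headed G22V-D3 (labelled RanG22V D0) and near the other libraries or between them in the pair headed T27N-D3 (labelled RanG22V D3), and MLP43 is low in the first pair.

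Genes of chlorophyll breakdown were called between the pairs in 2 of 14 cases, both higher in the pair headed G22V-D3, with a list median of 0.97. NYE1 encodes the magnesium dechelatase that starts the degradation of chlorophyll a. It was at 781 and 854 CPM against 204 and 211 CPM, with 41.2 and 37.1 CPM in Col (log2 fold change of 1.98 ± 0.37 (SE), edgeR adjusted p = 0.023). MES16, an esterase acting on the later products, was at 309 and 348 CPM against 40.3 and 44.9 CPM, with 4.34 and 3.3 CPM in Col (log2 fold change of 2.95 ± 0.47 (SE), edgeR adjusted p = 0.0144). In both genes the pair headed T27N-D3 lay between Col and the other pair without overlap, and all differences from Col were called.

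The enzymes NYC1, PPH and PAO, of the same pathway, had their larger values in the pair headed G22V-D3, without overlap, but were not called. Of the 14 genes, 9 lay above the other pair without overlap and 3 below, as did 32.0% and 27.3% of all genes. NYC1, the chlorophyll b reductase, was at 1987 and 1617 CPM against 178 and 297 CPM, with 35.8 and 199 CPM in Col, and its fold change had a wide error (log2 fold change of 2.92 ± 0.84 (SE), edgeR adjusted p = 0.0856). The pheophytinase PPH was at 427 and 456 CPM against 211 and 228 CPM, while the pheophorbide a oxygenase PAO at 123 and 136 CPM against 47.6 and 87.5 CPM. Their edgeR adjusted p were 0.22 and 0.336. Against Col, 7 of the 14 were called higher and 2 lower in the first pair, and 4 higher and 3 lower in the second. The chlorophyllase CLH1 was among the lower ones in both, at 3.47 and 6.56 CPM and 29.3 and 15.2 CPM against 1466 and 129 CPM. With 1 of the 4 libraries left out 0 of the 14 were called between the pairs, and the fit of the 4 alone called 7 higher and 2 lower.

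Dark and carbon starvation genes had a larger median difference and more calls than any other list in the fit of all 10 libraries, though not in every other fit. The salicylic acid list had the larger median without Set1 of the pair headed G22V-D3 (2.63 against 2.21) or Set2 of the pair headed T27N-D3 (2.96 against 2.49), and the light-harvesting list had more calls, 36 against 22, in the fit of the 4 libraries alone. Of 26 members, 13 were called higher in the pair headed G22V-D3 and 0 lower, the median log2 fold change was 2.50, and 23 members lay above the other pair without overlap, as did 32.0% of all genes. ASN1, the asparagine synthetase that stores nitrogen in sugar-starved leaves, was at 1485 and 839.7 CPM against 10.8 and 42.7 CPM, with 1.35 and 0.895 CPM in Col (log2 fold change of 5.44 ± 0.72 (SE), edgeR adjusted p = 0.00667). BGLU30, a beta-glucosidase first known as a dark-inducible gene, was at 2159 and 2029 CPM against 8.71 and 19.1 CPM, with 2.05 and 0.112 CPM in Col (log2 fold change of 7.23 ± 1.02 (SE), edgeR adjusted p = 0.00851). Both genes were called above Col in both pairs, by 10.01 and 4.57 on the log2 scale for ASN1 and by 10.90 and 3.66 for BGLU30. DIN9, a mannose-6-phosphate isomerase, was at 44.6 and 13.8 CPM against 0.0660 and 0.285 CPM, while the second pair was within the range of the D0-headed and Col libraries.

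Enzymes of amino acid breakdown were among the 13. DIN3 and DIN4 encode subunits of the branched-chain 2-oxoacid dehydrogenase. DIN4 was at 280.3 and 167 CPM against 19.2 and 13.8 CPM, with 8.38 and 11.7 CPM in Col (log2 fold change of 3.76 ± 0.43 (SE), edgeR adjusted p = 0.00421), and DIN3 at 80.2 and 61 CPM against 9.11 and 8.47 CPM with 2.64 and 5.04 in Col (log2 fold change of 3.01 ± 0.38 (SE), edgeR adjusted p = 0.00605). In the pair headed T27N-D3 neither was called against Col (edgeR adjusted p = 0.276 and 0.0676). The next steps of leucine breakdown were also higher in the pair headed G22V-D3, with log2 fold changes of 2.53 for the isovaleryl-CoA dehydrogenase IVD and 2.57 and 1.82 for the methylcrotonyl-CoA carboxylase subunits MCCA and MCCB. ETFQO, which passes electrons from such dehydrogenases to the respiratory chain, differed by 2.48. LKR, the first enzyme of lysine breakdown, was at 1094 and 1106 CPM against 211 and 172 CPM, with only 4.99 and 4.25 CPM in Col, so that it was called above Col in both pairs and between them (log2 fold change of 2.52 ± 0.52 (SE), edgeR adjusted p = 0.0332). TAT7, a tyrosine aminotransferase, was called in the same 3 comparisons.

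Regulators of the starvation response were called as well. BZIP1, a transcription factor of the SnRK1 energy-sensing pathway, was at 365 and 214 CPM against 27.8 and 21.5 CPM, with 2.99 and 4.98 CPM in Col (log2 fold change of 3.55 ± 0.55 (SE), edgeR adjusted p = 0.0122). TPS11, a trehalose-6-phosphate synthase family member used as a starvation marker, had a log2 fold change of 3.40 ± 0.46. The proline dehydrogenase PRODH1 was at 1462 and 877 CPM against 75.4 and 126 CPM, which was not called, with Col libraries of 119.8 and 12.6 CPM that differed widely from each other. Against Col, 21 of the 26 were called higher in the pair headed G22V-D3 with a median of 3.90, and 7 in the pair headed T27N-D3 with a median of 0.91, and 0 were lower in either. The 13 calls between the pairs were 0 or 1 without a library headed T27N-D3, 5 or 8 without 1 headed G22V-D3, and 22 in the fit of the 4 libraries alone.

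**Figure D2:**
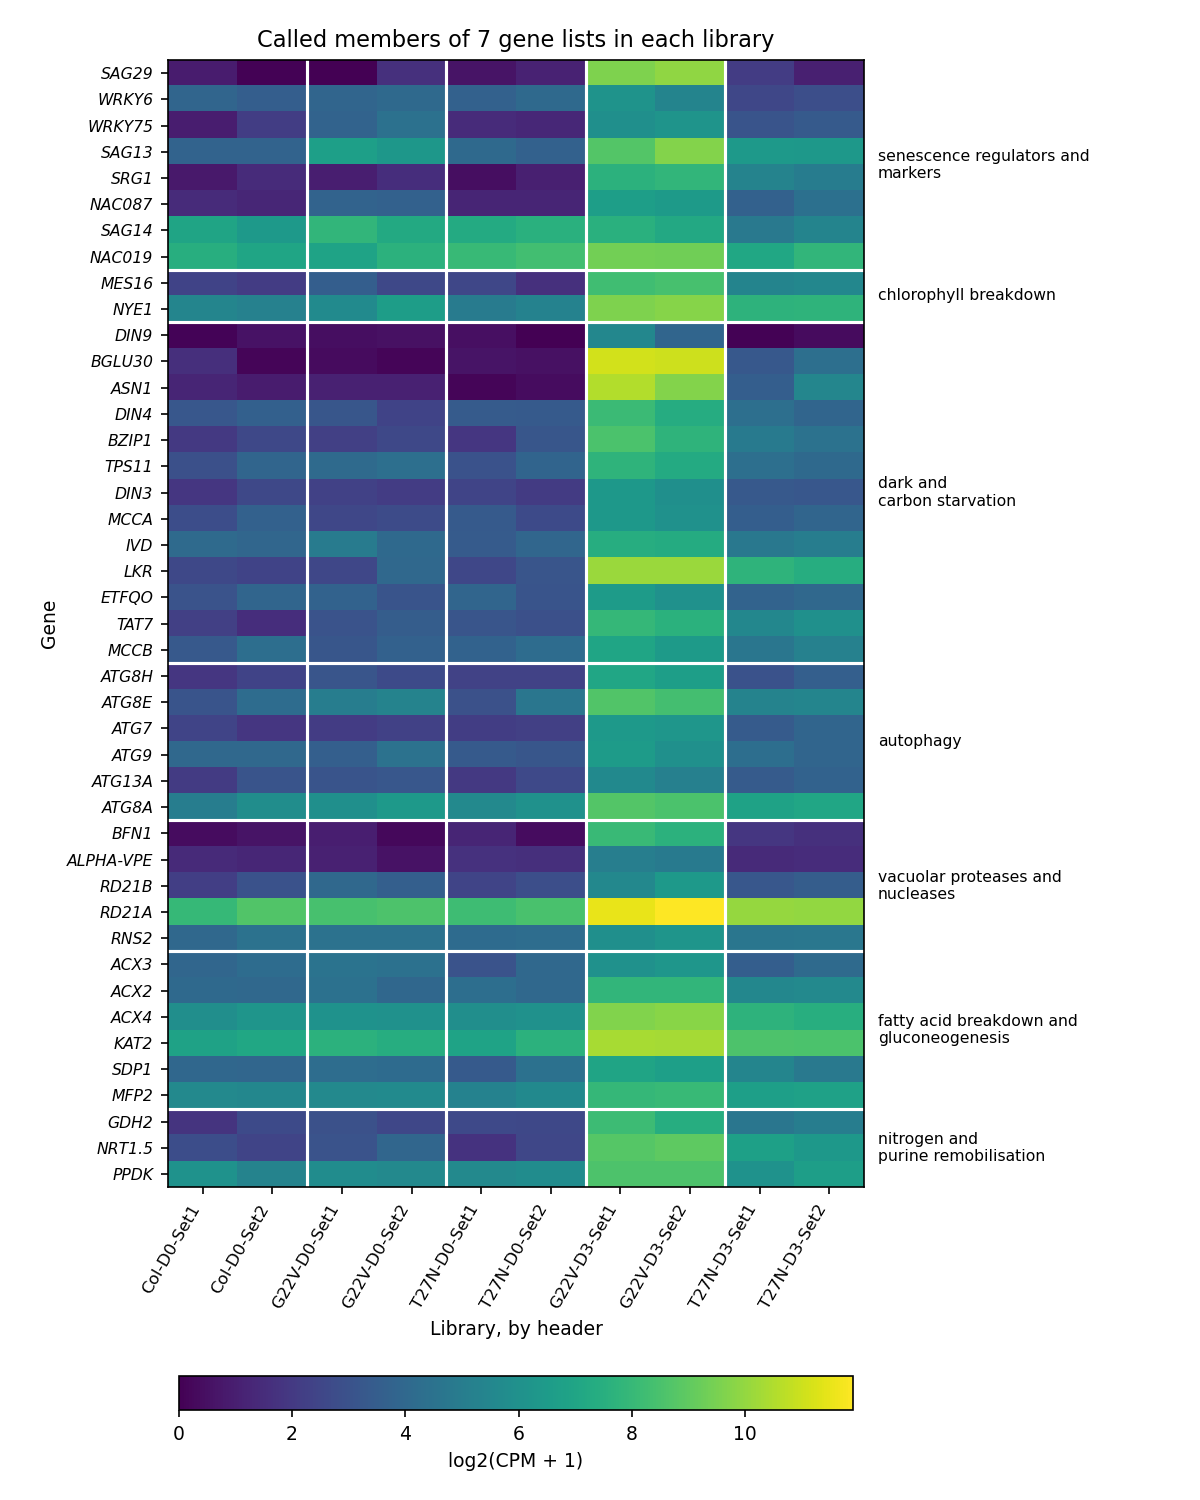
Levels, as log2(CPM + 1) on the colour scale, of the 43 called members of 7 gene lists in the 10 libraries, with genes in rows and libraries in columns by count file header. All 43 are brighter in the pair headed G22V-D3 (labelled RanG22V D0) than in the pair headed T27N-D3 (labelled RanG22V D3), which follows from showing called members of lists with 0 lower calls, and the second pair differs from the D0-headed libraries in some rows such as LKR and NYE1 and not in others such as DIN9 and ALPHA-VPE.

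Autophagy genes were called in 6 of 32 cases, all higher in the pair headed G22V-D3, with a list median of 1.1. The ubiquitin-like ATG8 proteins coat the forming autophagosome, and 3 of their genes were called. ATG8H was at 133 and 101 CPM against 7.13 and 11.3 CPM, with 2.64 and 4.25 CPM in Col (log2 fold change of 3.67 ± 0.39 (SE), edgeR adjusted p = 0.00367). ATG8E was at 401 and 324 CPM against 38.5 and 41.3 CPM, while ATG8A at 417 and 370.3 CPM against 116 and 129 CPM, both without overlap. ATG8F and ATG8G, of the same family, were not called and had log2 fold changes of 0.56 ± 0.50 and -0.07 ± 0.48. ATG7, the enzyme that activates ATG8, was at 83.7 and 76.3 CPM against 9.57 and 13.7 CPM, with 4.44 and 2.74 CPM in Col (log2 fold change of 2.78 ± 0.33 (SE), edgeR adjusted p = 0.00487). ATG9, the membrane carrier, and ATG13A, of the initiating kinase complex, differed by 2.22 and 1.93 on the log2 scale.

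The cargo receptor NBR1 was at 844 and 781 CPM and 545 and 610.1 CPM and was not called, and the lipid kinase subunit VPS15 had a fold change of the opposite sign (-0.37 ± 0.28, not called). Against Col, 20 of the 32 were called higher in the first pair and 3 in the second, ATG7, ATG8A and ATG8H, with 0 lower in either. The count between the pairs was 0 or 1 without a library headed T27N-D3, 2 without either headed G22V-D3, and 19 in the fit of the 4 alone.

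Vacuolar proteases and nucleases were called higher in 5 of 13 cases and lower in 0, with a median of 1.49. BFN1, a nuclease that degrades RNA and DNA in dying cells, was at 269 and 202 CPM against 2.64 and 2.14 CPM, with 0.299 and 0.559 CPM in Col (log2 fold change of 6.62 ± 0.78 (SE), edgeR adjusted p = 0.00437). ALPHA-VPE, a vacuolar processing enzyme that matures other proteases, was at 33.6 and 28.1 CPM against 1.72 and 1.81 CPM, with 1.7 and 1.4 CPM in Col (log2 fold change of 4.13 ± 0.47 (SE), edgeR adjusted p = 0.00414). For both genes the pair headed G22V-D3 stood alone among the 10 libraries, and the other pair was not called against Col. The abundant cysteine protease gene RD21A, at 2896 and 3841 CPM against 1049 and 1006 CPM, was called above Col in both pairs and between them (log2 fold change of 1.71 ± 0.39 (SE), edgeR adjusted p = 0.0454). Its relative RD21B and the ribonuclease gene RNS2 were called too, with log2 fold changes of 2.78 and 1.41. The proteases RD19A and AALP were not called and lay at 1321 and 1395 against 990.2 and 969 CPM and at 1711 and 2147 against 1069 and 965 CPM. The count was 0 without either library headed T27N-D3, 3 or 2 without 1 headed G22V-D3, and 9 higher and 1 lower in the fit of the 4 alone.

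The 26S proteasome, the other main protein-degrading machine, gave 0 calls among 19 subunit genes by edgeR, also in the fit of the 4 alone. At an unadjusted p below 0.05 there were 3 of the 19, as were 4702 of all 21475 genes. DESeq2 called 2 of the 19 higher, where it called 1523 of all genes higher. The median log2 fold change of the 19 was 0.32. RPT3, an ATPase subunit, was at 184 and 137 CPM against 90.7 and 89.7 CPM, while RPN12A, of the lid, was at 97.7 and 80.5 CPM against 99.2 and 82.2 CPM with overlapping values. Against Col, 3 of the 19 were called higher in the first pair and 0 in the second.

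Breakdown of lipids was called higher in 6 of 17 cases and lower in 0, with a median of 1.21. The called genes follow the peroxisomal pathway from the lipase SDP1, which releases fatty acids from storage oil, to the thiolase KAT2, which cuts off acetyl-CoA. ACX2, an acyl-CoA oxidase for long chains, was at 229 and 231 CPM against 44.1 and 48.4 CPM, with 15.7 and 15.2 CPM in Col (log2 fold change of 2.31 ± 0.29 (SE), edgeR adjusted p = 0.00575). ACX4, for short chains, was at 805 and 875 CPM against 209 and 174 CPM, with 57.1 and 72.5 CPM in Col (log2 fold change of 2.13 ± 0.31 (SE), edgeR adjusted p = 0.00929). ACX3, MFP2, KAT2 and SDP1 differed by 2.36, 1.21, 1.76 and 1.72. ACX2, ACX4, KAT2 and MFP2 were also called above Col in both pairs, ACX3 and SDP1 in the first pair alone. PES1, which moves phytol and fatty acids into esters in senescing chloroplasts, was at 426 and 737 CPM against 119 and 149 CPM, over the threshold (edgeR adjusted p = 0.0668). The peroxisomal malate dehydrogenase PMDH2 was called below Col in both pairs, at 9.99 and 2.87 CPM and 28.5 and 9.75 CPM against 414 and 330.0 CPM. Without a library headed T27N-D3 the count was 0, without 1 headed G22V-D3 it was 2 or 1, and in the fit of the 4 alone it was 11.

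Nitrogen and purine remobilisation held 3 called genes among 20, all higher, with a median of 0.32. GDH2, a glutamate dehydrogenase subunit, was at 282 and 172 CPM against 24.4 and 32.3 CPM, with 2.44 and 5.48 CPM in Col (log2 fold change of 3.00 ± 0.44 (SE), edgeR adjusted p = 0.00937). PPDK, the pyruvate orthophosphate dikinase that speeds nitrogen export from old leaves, was at 377 and 384 CPM against 66.2 and 102 CPM, with 66.9 and 38.7 CPM in Col (log2 fold change of 2.18 ± 0.36 (SE), edgeR adjusted p = 0.0165). NRT1.5, a nitrate transporter, was at 440.2 and 499 CPM against 108 and 81.8 CPM, called above Col in both pairs. GLN1;2, a cytosolic glutamine synthetase, overlapped between the pairs at 979.7 and 1368 CPM and 984 and 1006 CPM. The chloroplast enzyme GLN2 was called below Col in both, at 16.2 and 17.6 CPM and 36.4 and 32.1 CPM against 341 and 261 CPM. This count fell to 0 without either library headed T27N-D3 and to 0 or 1 without 1 headed G22V-D3, and was 8 higher and 1 lower in the fit of the 4.

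Sugar transport and starch genes were mixed, with 2 of 23 called higher and 1 lower. STP1, a hexose uptake transporter, was at 544 and 536 CPM against 163 and 148 CPM (log2 fold change of 1.80 ± 0.30 (SE), edgeR adjusted p = 0.0167). BAM9, a beta-amylase family member, was at 125 and 65.6 CPM against 18 and 19.4 CPM (log2 fold change of 2.35 ± 0.38 (SE), edgeR adjusted p = 0.0152). SEX4, a phosphatase needed for starch breakdown, was lower, at 2.37 and 3.78 CPM against 16.7 and 16.7 CPM, and both pairs were called below Col at 111 and 95.7 CPM (log2 fold change of -2.44 ± 0.34 (SE), edgeR adjusted p = 0.00775). None of these 3 was called without 1 of the libraries headed T27N-D3, and the fit of the 4 alone called 7 higher and 5 lower.

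Calvin cycle genes lay below Col in both pairs, while for light-harvesting genes the D0-headed and Col libraries differed between Set1 and Set2. The median log2(CPM + 1) of 20 Calvin cycle genes was 5.83 and 5.39 in the pair headed G22V-D3, 6.38 and 5.97 in the pair headed T27N-D3 and 8.25 to 9.12 in the other 6 libraries. For 48 light-harvesting and photosystem genes it was 6.23 and 5.74, and 7.67 and 7.43, against 7.28 to 8.36 in Set1 and 9.5 to 10.19 in Set2 of the others, so that the pair headed T27N-D3 overlapped with Set1. None of the 48 and none of the 20 was called between the pairs by edgeR, with medians of -1.46 and -0.79. At an unadjusted p below 0.05 there were 18 and 6, DESeq2 called 10 and 3 lower, and the fit of the 4 libraries alone called 36 and 5 lower, so the call depends on the fit. Of the 48, 42 lay below the other pair without overlap in the pair headed G22V-D3, as did 27.3% of all genes. RBCS1A, a small subunit of Rubisco, was at 209.9 and 78.3 CPM against 509.6 and 336 CPM, with 3975 and 3996 CPM in Col, and was called below Col in both pairs, by -4.79 and -3.24 on the log2 scale. The Rubisco activase gene RCA was at 82.7 and 43.9 CPM against 126 and 129 CPM, with 613 and 441 CPM in Col. RBCS and LHCB genes have near-identical copies, so reads may be split between them.

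LHCB2.2, a light-harvesting gene of photosystem II, was at 19.3 and 13.6 CPM against 199 and 245 CPM. In the D0-headed and Col libraries it was at 5.82 to 19.6 CPM in Set1 and at 440.0 to 588 CPM in Set2. That ratio within each pair exceeded the one between the D3-headed pairs, and LHCB2.2 was not called (log2 fold change of -3.76 ± 2.12 (SE), edgeR adjusted p = 0.338). LHCB1.3, in the same family, was at 434 and 141 CPM against 3718 and 2756 CPM. Against Col, 35 of the 48 were called lower in the first pair and 14 in the second, and 18 and 16 of the 20 Calvin cycle genes, with 0 higher in any of these.

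Chlorophyll synthesis gave 1 call in 25, GLK1, a transcription factor that turns on chloroplast genes. It was lower in the pair headed G22V-D3, at 23.2 and 25.9 CPM against 62.4 and 62.3 CPM, with Col between them at 35.3 and 37.9 CPM (log2 fold change of -1.34 ± 0.26 (SE), edgeR adjusted p = 0.0278). CHLH, a magnesium chelatase subunit, was at 16 and 7.75 CPM against 54.3 and 42 CPM, with 37 and 93.1 CPM in Col (edgeR adjusted p = 0.0818). It was called below Col in the first pair but not in the second (edgeR adjusted p = 0.0144 and 0.665). The list had a median of -0.66 and gave 10 lower calls against Col in the first pair and 5 in the second, and the fit of the 4 called 8 lower between the pairs. Plastid translation gave 0 calls in 10 by edgeR, 3 at an unadjusted p below 0.05 and 1 call by DESeq2, with a median of -0.44.

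**Figure D3:**
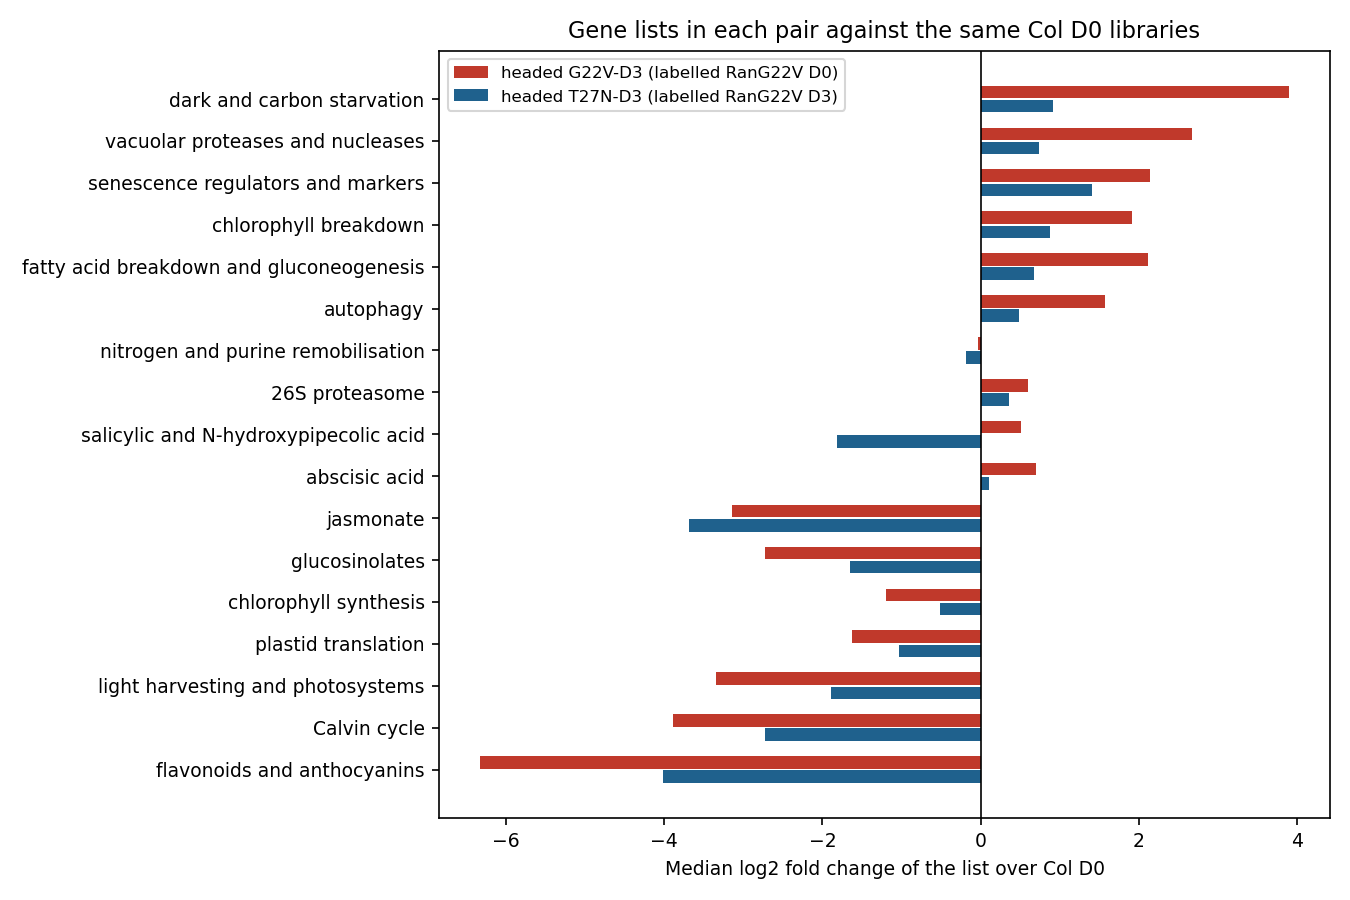
Median log2 fold change over Col D0 of 17 gene lists in the pair headed G22V-D3 (red, labelled RanG22V D0) and the pair headed T27N-D3 (blue, labelled RanG22V D3), each against the same 2 wild type libraries. Starvation genes have medians of 3.90 and 0.91 and Calvin cycle genes of -3.89 and -2.73, while the salicylic acid list has medians of opposite sign, 0.51 and -1.82.

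Salicylic acid and N-hydroxypipecolic acid are defence signals that also rise in ageing leaves. Of 26 genes of their synthesis, turnover and response, 7 were called higher in the pair headed G22V-D3 and 0 lower, with a median of 2.24 and 22 members above the other pair without overlap, where 32.0% of all genes lay so. The list's median log2(CPM + 1) was 4.33 and 4.56 in the first pair, 2.01 and 2.99 in the second, and 4.1 and 3.58 in Col. It was highest in the pair headed G22V-D0, at 6.23 and 6.43, with 3.44 and 3.66 in the pair headed T27N-D0. By header, the list was thus lower under D3 than under D0 in both lines, with median log2 fold changes of -2.25 for G22V and -1.25 for T27N. SARD4, a reductase of pipecolic acid synthesis, was at 46.6 and 59.3 CPM against 6.6 and 8.18 CPM, with 20.0 and 7.39 CPM in Col (log2 fold change of 2.84 ± 0.45 (SE), edgeR adjusted p = 0.0144). FMO1, which makes N-hydroxypipecolic acid, was at 8.49 and 14.9 CPM against 0.462 and 0.285 CPM (log2 fold change of 4.97 ± 1.05 (SE), edgeR adjusted p = 0.0351). UGT74F2, which adds glucose to salicylic acid, was at 387 and 337 CPM against 36.8 and 25.3 CPM, with 10.6 and 11.8 CPM in Col (log2 fold change of 3.54 ± 0.70 (SE), edgeR adjusted p = 0.0278). DMR6, a salicylic acid hydroxylase, was at 83.4 and 88.8 CPM against 7.92 and 9.8 CPM, while Col lay between them at 54.4 and 12.8 CPM.

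Of the other members, NPR3 and GRX480 were higher in Col than in either pair, while PR1 was lower in Col than in the pair headed G22V-D3. NPR3, a salicylic acid receptor, was at 77.8 and 63.6 CPM against 23.4 and 22.2 CPM, but at 137 and 127 CPM in Col, so that the difference between the pairs goes with a level below Col in the second (-2.53 ± 0.36 (SE), edgeR adjusted p = 0.00465). GRX480, a glutaredoxin of the response, was at 39.4 and 26.6 CPM against 0.198 and 2.95 CPM with 112 and 117 CPM in Col. PR1, a defence gene of the response, was at 80.8 and 299.8 CPM against 2.31 and 2.05 CPM, with 1.4 and 16.7 CPM in Col and 668 and 189 CPM in the pair headed G22V-D0. Against Col, 5 of the 26 were called higher and 1 lower in the first pair, and 1 higher and 6 lower in the second. The 7 calls became 0 without either library headed T27N-D3, 1 or 0 without 1 headed G22V-D3, and 13 in the fit of the 4 libraries.

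Jasmonate genes were low in both pairs, with 20 of 30 called below Col in the first and 21 in the second and 0 above. Between the pairs 1 was called higher, JAZ8, a repressor of the pathway. It was at 6.8 and 3.59 CPM against 0.264 and 0.381 CPM, with 26.2 and 23 CPM in Col (log2 fold change of 3.96 ± 0.68 (SE), edgeR adjusted p = 0.0174). LOX3, a lipoxygenase of jasmonate synthesis, was at 82.8 and 37.3 CPM against 18.8 and 8.56 CPM with 2128 and 367 CPM in Col, and was not called between the pairs. Between the pairs DESeq2 called 5 of the 30 higher and 0 lower, and the fit of the 4 libraries alone called 8 higher and 2 lower of 29.

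Abscisic acid genes gave 2 higher and 0 lower calls of 26 and a median of -0.21, or -0.04 with members at 0 in a pair held at their bound. NCED2, of the dioxygenase family that makes the hormone's precursor, was at 24 and 25.6 CPM in the pair headed G22V-D3 and had 0 counts in both libraries headed T27N-D3, which makes it at least 145-fold higher when each of those is given 3 counts. AAO3, the oxidase of the last step, was at 52.8 and 56 CPM against 13.5 and 19.2 CPM, with 6.19 and 4.48 CPM in Col (log2 fold change of 1.73 ± 0.32 (SE), edgeR adjusted p = 0.0211). DESeq2 did not call NCED2, and it called 1 of the 26 higher and 1 lower. The fit of the 4 libraries alone called 3 higher and 2 lower of 24. SAG113, a phosphatase that the hormone induces in ageing leaves, was called above Col in both pairs and was at 349 and 352 CPM against 121 and 236 CPM (edgeR adjusted p = 0.518 between them).

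Ethylene and cytokinin genes gave 1 call each, of 18 and of 12, both higher in the pair headed G22V-D3, where 2.77% of all genes were called higher. DESeq2 called 2 and 3 higher, and the fit of the 4 libraries alone 2 of 17 and 2 of 10, with 0 lower in each. ACS2, an ethylene-forming ACC synthase, was at 130.0 and 72.9 CPM against 7.39 and 4.19 CPM, with 4.19 and 2.46 CPM in Col (log2 fold change of 4.14 ± 0.45 (SE), edgeR adjusted p = 0.00383). A second member of its family, ACS7, was at 23.5 and 12.6 CPM against 0.264 and 1.28 CPM, just over the threshold (edgeR adjusted p = 0.0513). ARR16, a cytokinin response regulator, was at 68 and 87.5 CPM against 7.92 and 20.4 CPM, with 11.1 and 19.5 CPM in Col (log2 fold change of 2.45 ± 0.48 (SE), edgeR adjusted p = 0.0275). ACS2 kept its call in each fit run except the one without replicate 2 of the pair headed T27N-D3, while ARR16 lost its call in all 4 fits that left out 1 of the compared libraries.

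Of 16 oxidative stress genes 5 were called higher and 0 lower, and the list's median was 0.78. CAT1, a catalase, was at 223 and 181 CPM against 8.78 and 10.5 CPM, with 19.2 and 48.8 CPM in Col, so the pair headed T27N-D3 was the lowest of all libraries (log2 fold change of 4.39 ± 0.64 (SE), edgeR adjusted p = 0.00929). ZAT12, a zinc finger factor of the response to oxidants, was at 377 and 459.6 CPM against 37 and 38.5 CPM, while Col was between them at 179 and 158 CPM (log2 fold change of 3.47 ± 0.39 (SE), edgeR adjusted p = 0.004). It was called above Col in the first pair and below Col in the second (log2 fold changes of 1.31 and -2.16). The mitochondrial alternative oxidases AOX1A and AOX1D were at 289 and 358 CPM against 51.5 and 67.9 CPM and at 65.9 and 70.6 CPM against 5.81 and 11 CPM. The protein kinase gene OXI1 was called as well, with a log2 fold change of 3.38. CSD1, a copper and zinc superoxide dismutase, was at 157 and 216 CPM against 57.5 and 68.8 CPM, which was not called. This count was 0 or 1 without a library headed T27N-D3 and 4 without either headed G22V-D3, and it was 6 higher and 2 lower in the fit of the 4 alone and 6 higher and 1 lower by DESeq2.

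Ran and nuclear transport genes gave 0 higher and 2 lower calls of 20, with a median of -0.41. RAN3 was at 57.3 and 50.8 CPM against 115 and 124 CPM, with 52.1 and 53.9 CPM in Col, 46.4 and 50.0 CPM in the pair headed G22V-D0 and 103 and 109 CPM in the pair headed T27N-D0 (log2 fold change of -1.14 ± 0.25 (SE), edgeR adjusted p = 0.0404). Its levels split by the line named in the header, whichever day the header names, while by the labels the high pairs are RanG22V D3 and RanT27N D3. RAN1 was at 851 and 913 CPM against 1086 and 1263 CPM, while RAN2 at 160.4 and 159 CPM against 237 and 254 CPM, neither of them called between the pairs and both called above Col, where they were at 437 and 256 and 53.5 and 51.2 CPM. The files do not separate transcripts of a transgene from those of the plant's own genes, and the Ran genes are near-identical copies whose reads may be split. RANGAP1, which makes Ran hydrolyse its GTP, was lower at 12.1 and 9.38 CPM against 28.5 and 26.4 CPM, and both pairs were called below Col at 81.5 and 99.9 CPM. The call of RAN3 was lost in 7 of 17 other fits, all of them with 1 library left out.

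Glucosinolate synthesis, the making of the sulphur defence compounds of the cabbage family, was lower in 3 of 26 cases and higher in 0, with a median of -1.09, or -1.01 with members at their bound. BAT5, a plastid transporter of the pathway, was at 0.776 and 0.431 CPM against 5.67 and 10.7 CPM, with 13.8 and 36.4 CPM in Col (log2 fold change of -3.74 ± 0.67 (SE), edgeR adjusted p = 0.0201). MAM3, a chain-elongating enzyme, was at 4.7 and 5.89 CPM against 14.6 and 37 CPM, while CYP83A1, a P450 of the core pathway, at 10.6 and 3.06 CPM against 28.8 and 81.3 CPM. All 3 were called below Col in the first pair and not in the second. In the whole list 23 and 9 were called below Col and 0 above. The count was 0 when any 1 of the 4 libraries was left out, and 1 higher and 12 lower in the fit of the 4. Flavonoid and anthocyanin genes gave 0 calls of 19 between the pairs by edgeR, 5 at an unadjusted p below 0.05, and 1 higher and 3 lower by DESeq2, while 13 and 9 were called below Col.

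**Figure D4:**
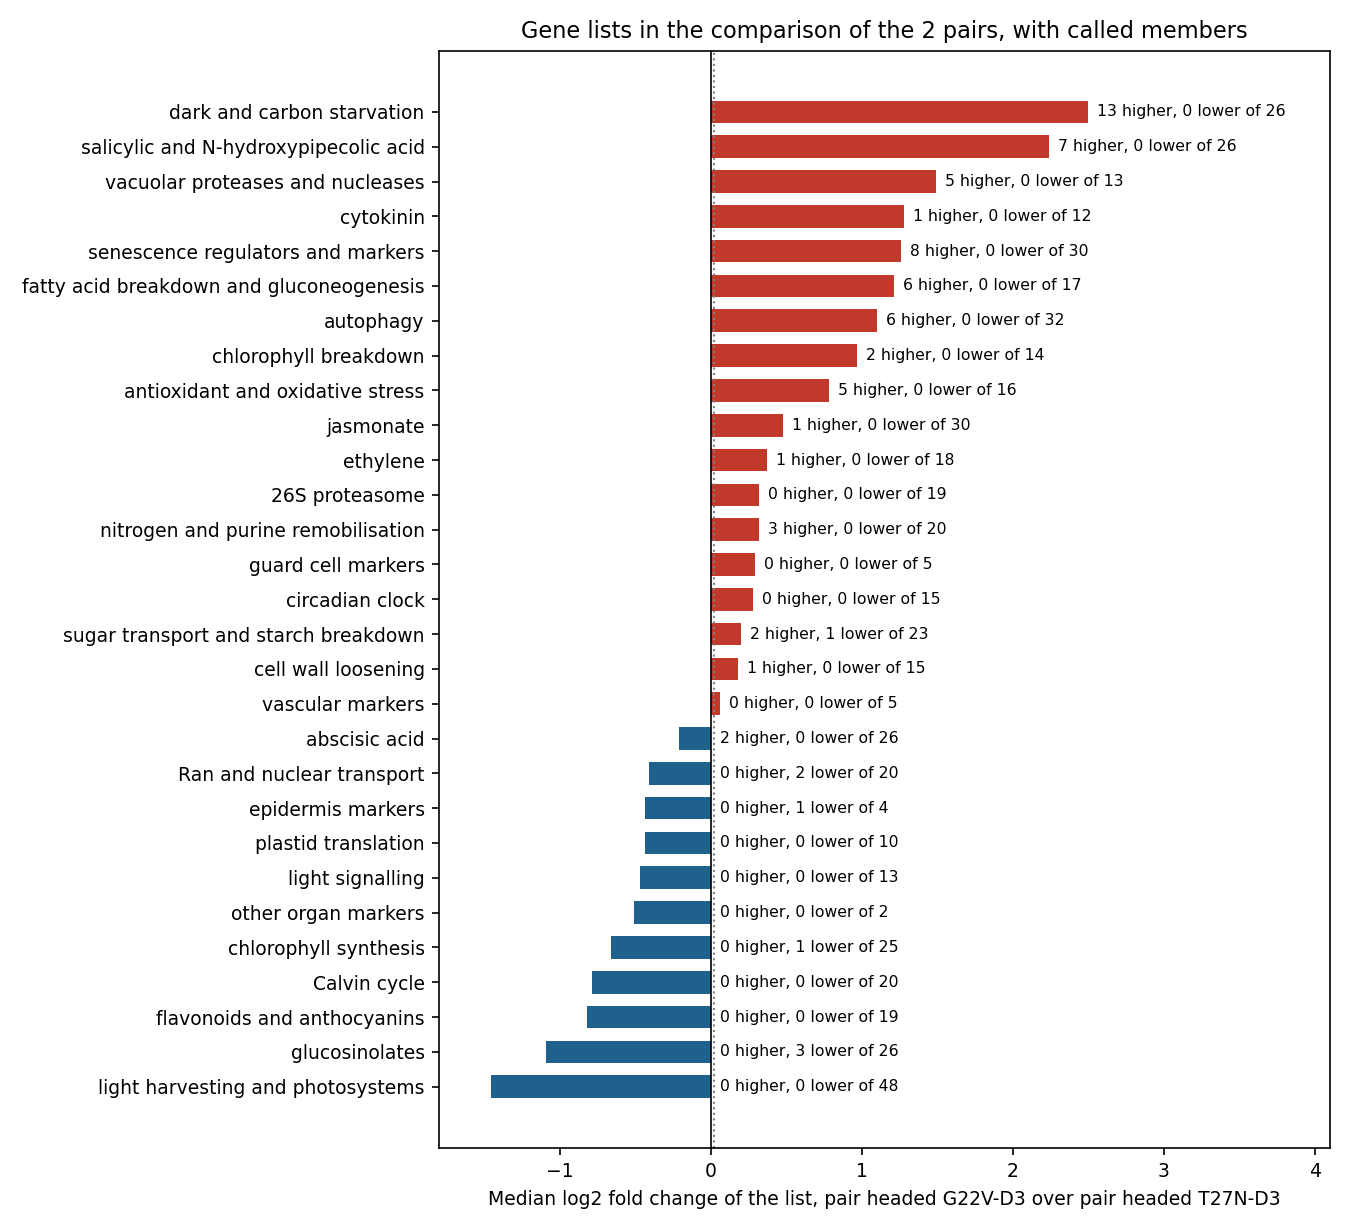
Median log2 fold change of 29 gene lists, pair headed G22V-D3 (labelled RanG22V D0) over pair headed T27N-D3 (labelled RanG22V D3), with the number of called members beside each bar and a dotted line at the median of all genes tested (0.02). Starvation (2.50), salicylic acid (2.24) and vacuolar protease (1.49) lists lie at the top, and glucosinolates (-1.09) and light harvesting (-1.46) at the bottom.

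The largest differences lay outside most of these lists. AT1G17030, of unknown product, was at 48.4 and 36.7 CPM and had 0 counts in the pair headed T27N-D3, and so was at least 249.8-fold higher. AT1G15385, annotated as a cotton fibre protein, and AT3G53040, a putative late embryogenesis abundant protein, had 0 counts there as well and were at least 142-fold and 96-fold higher. ADPG1, a polygalacturonase that digests pectin where organs detach and pods open, was at 21 and 12.4 CPM and was at least 98.2-fold higher by the same floor, although DESeq2 did not call it. A second polygalacturonase gene, PGAZAT, was at 77 and 54.5 CPM against 0 and 0.0476 CPM (log2 fold change of 10.93 ± 1.11 (SE), edgeR adjusted p = 0.0036). ADPG1 was the 1 call among 15 cell wall genes, whose median was 0.18, or 0.00 with members at their bound.

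AT4G18425, a membrane protein of the DUF679 family, was at 86.9 and 55 CPM against 0.0660 and 0 CPM, while AT3G25950, with a TLC lipid-sensing domain, at 76.1 and 55.3 CPM against 0.198 and 0.0951 CPM. No other library exceeded 1.16 CPM for AT4G18425 or 0.592 CPM for AT3G25950. AT4G18425 kept its call in every alternative fit in which it was tested.

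The 8 genes with the largest differences in the other direction were all called below Col in the pair headed G22V-D3, and none was called against Col in the pair headed T27N-D3. MLP43, of a family of major latex protein-like genes, was at 2.24 and 0.814 CPM against 50.4 and 41.5 CPM, with 96 and 163 CPM in Col (log2 fold change of -4.90 ± 0.51 (SE), edgeR adjusted p = 0.00367), and kept its call in all 17 other fits. PLAT2, with a PLAT lipid-binding domain, was at 5.25 and 1.58 CPM against 73.6 and 99.7 CPM, with 114 and 75.6 CPM in Col (log2 fold change of -4.66 ± 0.61 (SE), edgeR adjusted p = 0.00667). GolS2, a galactinol synthase that makes protective sugars under drought, was at 3.38 and 0.957 CPM against 24.6 and 28.4 CPM, with 26.6 and 27.6 CPM in Col. The TRAF-like gene ZW9 was at 1.05 and 0.526 CPM against 11 and 9.23 CPM, with 42.2 and 23.1 CPM in Col. For AT5G22580, of the stress responsive A/B barrel family, and AT1G52190, of the major facilitator superfamily, the log2 fold changes were -4.52 and -4.02. AT1G59950, an oxidoreductase, differed by -4.92 and a row sharing the name AACT1 by -5.93.

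Markers of leaf cell types were measured beside these results. Mesophyll genes were present in all libraries, as the RBCS1A and RCA values show. Guard cell markers gave 0 calls of 5 between the pairs by edgeR, 1 at an unadjusted p below 0.05 and 1 lower call by DESeq2, with a summed level of 47.5 and 51.5 CPM against 66.5 and 57.4 CPM, and between 298.1 and 641.0 CPM in the other libraries. Vascular markers gave the same counts of 5, at a summed 73.9 and 65.7 CPM against 89.9 and 103.4 CPM, and 236.9 to 468.4 CPM in the others. The sums follow the most abundant members, and the medians of log2(CPM + 1) had no such gap. For guard cells the median was 3.58 and 2.68 against 4.0 and 3.61, with 3.21 to 4.09 in the others. For vascular markers it was 4.12 and 3.7 against 4.35 and 4.37, with 3.34 to 4.46 in the others. Against Col, 1 guard cell marker was called lower in each pair, and 3 and 2 vascular markers. Of 4 epidermis markers tested LTP1, a lipid transfer protein, was called lower, at 82.8 and 62.3 CPM against 668 and 194 CPM, and their sum was 131.6 and 94.4 CPM against 728.6 and 251.3 CPM. LTP1 made up most of that sum. Of the 4 markers, 2 lay above the other pair and 2 below it without overlap. Of 6 markers of root, flower and seed, 2 passed the filter and 0 were called by edgeR or DESeq2 or had an unadjusted p below 0.05, and PYK10, a root gene, was at 19.3 and 15.7 CPM against 20.1 and 19 CPM. The flower gene AP1 and the seed gene CRU3 had 0 counts in all 10 libraries. The part of cell type shares in the results was not tested.

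The same lines, by header, were compared in the pairs with D0 headers. Headed G22V-D0 over headed T27N-D0, 69 of 21475 genes (0.321%) and 5 genes (0.0233%) were called higher and lower, 0.345% in all. The starvation list gave 0 calls there by edgeR with a median of -0.04, the autophagy list 0 with a median of 0.19, and the protease list 0 with a median of 0.07. At an unadjusted p below 0.05 these lists had 3, 1 and 5 genes of 26, 32 and 13, where 2030 of all 21475 genes lay. DESeq2 called 0 in each list. The salicylic acid list had a median of 3.03 and 4 calls of 26 by edgeR, all higher, while DESeq2 called 14 higher and 0 lower. Over all 21475 genes DESeq2 called 435 higher and 123 lower in this comparison. DLO1, a salicylic acid hydroxylase, was at 122 and 361 CPM against 1.2 and 1.74 CPM, while PR5, a defence gene, at 1425 and 439.6 CPM against 19.3 and 11.3 CPM. FMO1 and SARD4 were called here and between the D3-headed pairs, with 23.8 and 16.1 CPM against 0.120 and 0 CPM and 57 and 60.7 CPM against 9.14 and 6.73 CPM. Of the senescence list NAC087, SAG13 and WRKY75 were called higher in both comparisons by edgeR. DESeq2 called 4 of its 30 genes higher and 0 lower between the D0-headed pairs. The 74 calls became 0 without either library headed T27N-D0 and 0 in an edgeR fit of those 4 libraries alone, where 1811 genes had an unadjusted p below 0.05, while DESeq2 called 558. The difference between the 2 line contrasts was itself called for 45 genes (0.210%), with 0.191% above and 0.0186% below, among them DIN4, BFN1, ALPHA-VPE, WRKY6 and MLP43.

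**Figure D5:**
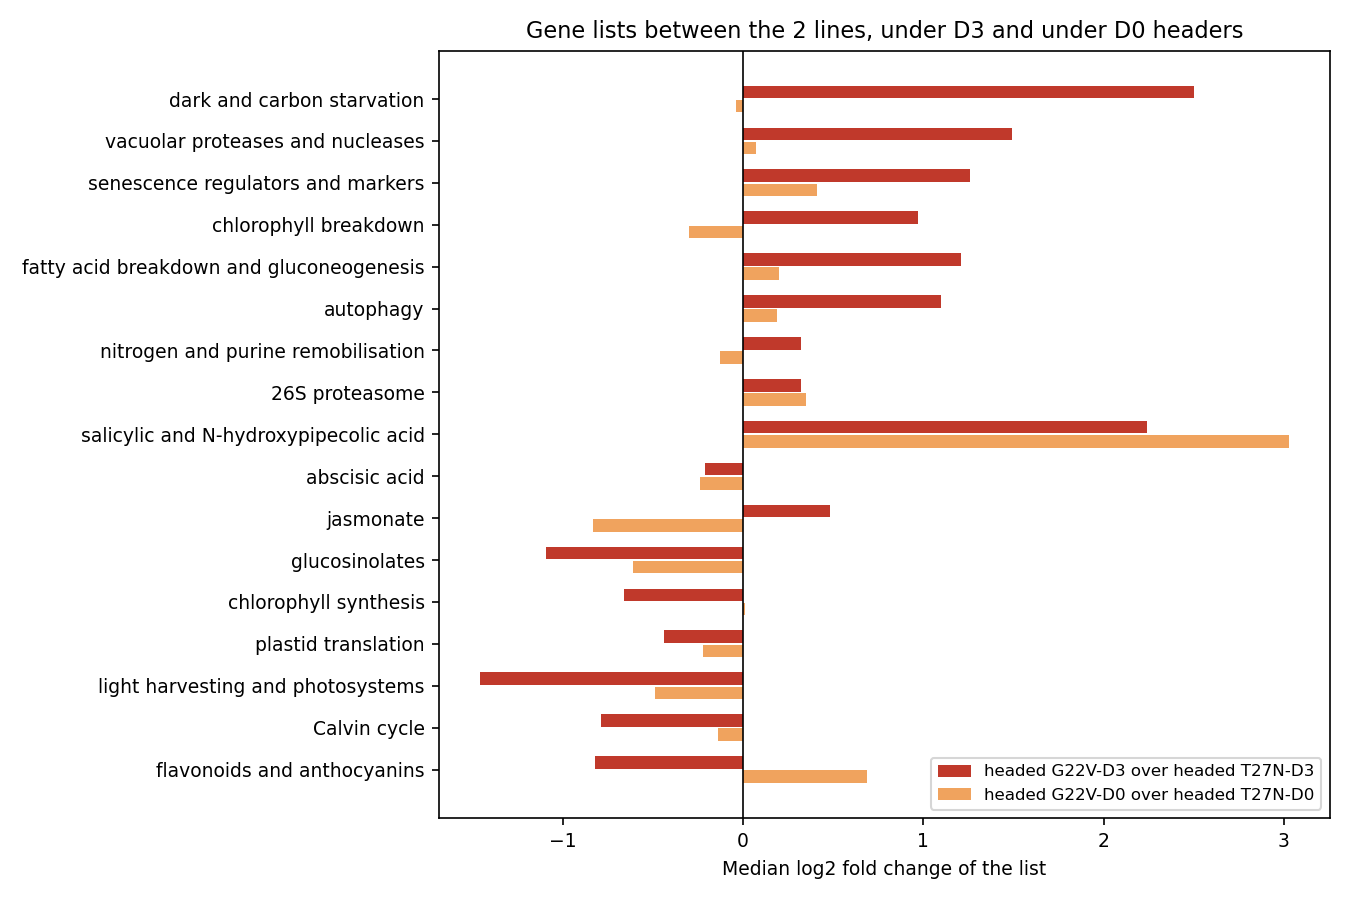
Median log2 fold change of 17 gene lists between the lines named in the headers, for the pairs headed D3 (red) and the pairs headed D0 (orange, labelled RanT27N D0 over RanT27N D3). Starvation genes have medians of 2.50 and -0.04, and the salicylic acid list has medians of 2.24 and 3.03.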

How the data were processed

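QuantSeq libraries count the 3' ends of transcripts. The values the authors deposited are raw counts for every gene in each of the 10 libraries. Bowtie2, edgeR and TAIR10 were used per the submitters' processing notes, with the counting program and strand setting not given in the sources used here. Each file has 33028 rows, of which 98.5% were paired with a locus, 429 rows share a name with another, and no row lacked a name. Groups follow the labels and are named here by header as well.

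All 10 libraries were fitted with edgeR 4.0.16 in R 4.3.3 with limma 3.58.1 as 5 group means, after its default expression filter (21475 genes) and TMM scaling, with a quasi-likelihood test and Benjamini-Hochberg adjustment over all genes, called below 0.05, and DESeq2 1.42.0 as an alternative. The biological coefficient of variation was 45%. The edgeR script was tested on simulated data. Folds against 2 libraries at 0 use 3 counts per library as a floor, and cover counting error only. Whether both libraries of a pair are from different plants is not in the labels, so p-values measure the spread between libraries, which may be technical. Within each pair the counts differed beyond sampling noise (chi-square per gene of 33.2 to 241.8). Replicate differences correlated at 0.12, 0.19 and 0.31 among Col and both D0-headed pairs, and at -0.01 to 0.07 wherever a D3-headed pair was involved (0.06 for the pairs compared). The main fit therefore has no replicate term.

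The libraries, the 29 gene lists and a panel of genes were chosen with earlier results of these data known. Named genes were the 8 largest called differences each way with at least 10 CPM in the higher pair and no overlap, for each list the 2 called members of lowest adjusted p, and the panel. Other genes named as examples were chosen after their values were seen. Of 576 list entries 547 were tested. The alternatives were other scaling, other filters, DESeq2, no ribosomal RNA rows, a replicate block, each library left out and the 4 compared libraries alone.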

Additional observations from a re-analysis of the deposited data

Results flagged for a closer look

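For 5 named genes the difference between the lines, by header, was not the same in the pairs headed D3 as in the pairs headed D0, by edgeR's test of that difference. The nuclease gene BFN1 had a difference of contrasts of 7.14 ± 1.04 (SE), edgeR adjusted p = 0.0341, on the log2 scale, with 6.62 between the D3-headed pairs and -0.52 ± 0.76 (SE), edgeR adjusted p = 0.887 between the D0-headed pairs. The vacuolar processing enzyme gene ALPHA-VPE had 5.51 ± 0.64 (SE), edgeR adjusted p = 0.0174, from 4.13 and -1.39 ± 0.45 (SE), edgeR adjusted p = 0.353. DIN4, of branched-chain amino acid breakdown, had 4.37 ± 0.58 (SE), edgeR adjusted p = 0.0239, from 3.76 and -0.61 ± 0.40 (SE), edgeR adjusted p = 0.699. The transcription factor gene WRKY6 had 3.19 ± 0.49 (SE), edgeR adjusted p = 0.0454, from 3.29 and 0.10 ± 0.34 (SE), edgeR adjusted p = 0.968. MLP43 had -4.44 ± 0.64 (SE), edgeR adjusted p = 0.0341, from -4.90 and -0.47 ± 0.43 (SE), edgeR adjusted p = 0.797.

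None of the 5 was called between the D0-headed pairs. By the labels, the same quantity compares the RanG22V line on day 0 with day 3 against the RanT27N line on day 0 with day 3. The number of genes called in this test was 45 with all libraries and between 1 and 135 with 1 library left out.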

How the results depend on the processing

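Among 63 named genes, 50 of them called, none changed direction in any alternative. RLE scaling, a filter of 1 CPM in 4 libraries and removal of ribosomal RNA rows left the counts of calls in all 5 comparisons within 1.5 times. With no filter on low counts there were 2107 calls between the pairs, 3793 for the pair headed T27N-D3 over Col, 563 between the D0-headed pairs and 568 for the difference of the line contrasts. DESeq2 called 2567, 4228, 558 and 705 in the same order and did not call NCED2 or ADPG1 (adjusted p of 0.107 and 0.131). Fits of only the 4 libraries compared called 3607 and 1125, and 0 between the D0-headed pairs (1811 at an unadjusted p below 0.05). A replicate block, whose numbers went together in Col and the D0-headed pairs (correlations of 0.12 to 0.31) but not in the D3-headed pairs, called 1072 between the pairs, 72 between the D0-headed pairs, 5213 and 2788 over Col, and 83 for the difference of contrasts, and lost CYP83A1. With 1 library left out, the calls ranged from 27 to 1464 between the pairs, from 2384 to 4899 for the pair headed G22V-D3 over Col, from 549 to 2533 for the pair headed T27N-D3 over Col, from 0 to 180 between the D0-headed pairs (1990 and 1376 at an unadjusted p below 0.05 in the fits with 0) and from 1 to 135 for the difference of contrasts. Of the 50 called genes, 47 or 44 lost the call without a library headed T27N-D3 and 27 or 25 without 1 headed G22V-D3. In those fits the lone library is assumed to vary like the other groups. The causes were not tested. Medians of 4 of 29 lists changed when members at 0 in a pair were held at their bound, the largest for cytokinin, from 1.28 to 0.63. Genes at a few counts are limited by depth, and 0 counts do not show absence.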

Other observations

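Light signalling genes gave 0 calls of 13 between the pairs by edgeR and 0 by DESeq2, with 0 at an unadjusted p below 0.05. An edgeR fit of the 4 libraries alone called 2 lower. Against Col, 2 of the 13 were called higher and 1 lower in the pair headed G22V-D3, where 11.1% and 12.1% of all genes were called. In the pair headed T27N-D3, 2 were called higher and 0 lower, where 4.14% and 7.05% of all genes were called. HY5, a transcription factor of light signalling, was at 43.4 and 51.3 CPM in the pair headed G22V-D3 and at 27 and 33.2 CPM in the pair headed T27N-D3, with 2.49 and 4.7 CPM in Col. HFR1, a factor of the response to shade and far-red light, was at 17.8 and 16.4 CPM and 30.2 and 35.1 CPM, with 0.0998 and 0 CPM in Col. Both were called above the same Col libraries in both pairs (edgeR adjusted p = 0.00083 and 0.00505 for HY5, 0.0086 and 0.0126 for HFR1), and the D0-headed libraries stayed at or below 6.12 CPM for HY5 and 1.51 CPM for HFR1.

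Clock genes gave 0 calls of 15 between the pairs by edgeR and 0 by DESeq2, with 0 at an unadjusted p below 0.05, and 1 higher and 1 lower in the fit of the 4 libraries. The morning gene LHY was at 96 and 79.1 CPM against 73.1 and 38.6 CPM, with 75.2 and 2.85 CPM in Col, where the libraries of the pair differed by more than the compared pairs did. TOC1, an evening gene, was at 28.9 and 29 CPM against 18.2 and 20.2 CPM, with 28.9 and 107 CPM in Col. The labels give no hour of harvest, and its part in the results was not tested.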
